A study of Macaca radiata with 6 samples.

Results

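Serpins, complement components and coagulation factors were followed in bonnet monkey (Macaca radiata) corpora lutea after prostaglandin F2-alpha (PGF2alpha). They were taken as every probe set whose single annotated symbol was a SERPIN of clades A to I, a complement component or factor (among them C1Q, C1R, C1S, C2 to C9, CFB, CFD, CFI and CFP), a clotting factor (F2, F3, F5 or F7 to F12) or one of PROS1, PROC, THBD, TFPI, TFPI2 and PLAT. This gave 91 probe sets of 50 genes, out of 52865 probe sets in all, of which 24969 carried 1 symbol. The corpus luteum is the ovarian gland that forms after ovulation and secretes progesterone, and PGF2alpha is a prostaglandin that brings about its regression. Female monkeys on day 10 of the luteal phase were injected intramuscularly with PGF2alpha (3 injections, 59 µg/kg body weight) or with phosphate-buffered saline as vehicle, and the gland was taken at 24 h. There were 3 arrays in each group, called PGF2alpha replicates 1 to 3 and vehicle replicates 4 to 6 after their titles. The labels do not give the ages of the animals or tie arrays to animals, and p-values therefore measure only how these samples varied, which may be technical. The arrays were of the Affymetrix Rhesus type, so the probes were designed on another macaque. SERPINB1, C1R, C2, C3, F8 and PLAT, among others, are not analysed here.

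Serpins are a family of proteins that mostly trap serine proteases by presenting a loop as bait and changing shape once it is cut, and several members have become hormone carriers or chaperones instead. Complement is a cascade of plasma proteins that marks cells and debris for uptake and can open pores in membranes, and coagulation is a cascade of proteases that ends in a fibrin clot. Both cascades are held in check by serpins and other inhibitors. The liver makes most of these proteins for the blood, but macrophages, endothelium and the ovary also express some of them.

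After PGF2alpha, probe sets of the serpins SERPINA3 and SERPINA1, of complement factor B (CFB) and of the collagen chaperone SERPINH1 rose, and the heparin cofactor SERPIND1 fell. For SERPINA3, SERPINA1, CFB and SERPINH1 other tested probe sets of the same gene did not pass. Their calls therefore belong to certain probe sets (2 each of SERPINA3 and SERPINA1) and not to the gene as a whole. Testing was limited to probe sets reaching their array's median signal on 3 or more arrays, which 60 of the 91 did. Of these 60, 6 rose and 1 fell at an adjusted p of 0.05 (limma, Benjamini-Hochberg over all 26944 tested probe sets), which is 11.7% against 5.01% of all tested probe sets (3.02% higher, 1.99% lower). SERPINA3 and SERPINA1 gave 4 of the 7, and probe sets of 1 gene are not independent. Of the 6 that rose, 3 (both of SERPINA3 and that of CFB) entered the test only through the PGF2alpha arrays. Among probe sets that reached the median on at least 1 array of each group, 4 of 56 were called (7.14%), against 4.70% of all. Read through the brightest tested probe set of each gene, 0 of 33 genes rose and 1 fell (3.03%, against 6.07% of all 9980 genes, 3.76% higher and 2.31% lower), while 12 of the 33 had an unadjusted p under 0.05, against 24.3% of all genes. Read from the mean of a gene's tested probe sets, 2 of the 33 genes rose and 2 fell, against 5.60% of all genes called. Those that rose were SERPINA3 and CFB, whose means include the probe sets tested only through the PGF2alpha arrays. The gene count therefore lay below or above the background depending on how a gene was read, and the count above it rests partly on those probe sets. The median log2 fold change was 0.26 over the 60 probe sets, against -0.03 over all tested, and the groups did not overlap in 21 of the 60, with PGF2alpha above in 14 and below in 7, against 26.8% of all tested (13% above, 13.7% below). Of the 60, 4 were tested only through the PGF2alpha arrays: the 2 called ones of SERPINA3 and those of CFB and F5. These had to differ to be tested, and they are counted among the 14 and in the median of 0.26. Log2 fold changes are PGF2alpha minus vehicle on the scale of log2(signal + 40), which understates the change of dim probe sets.

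**Figure D1:**
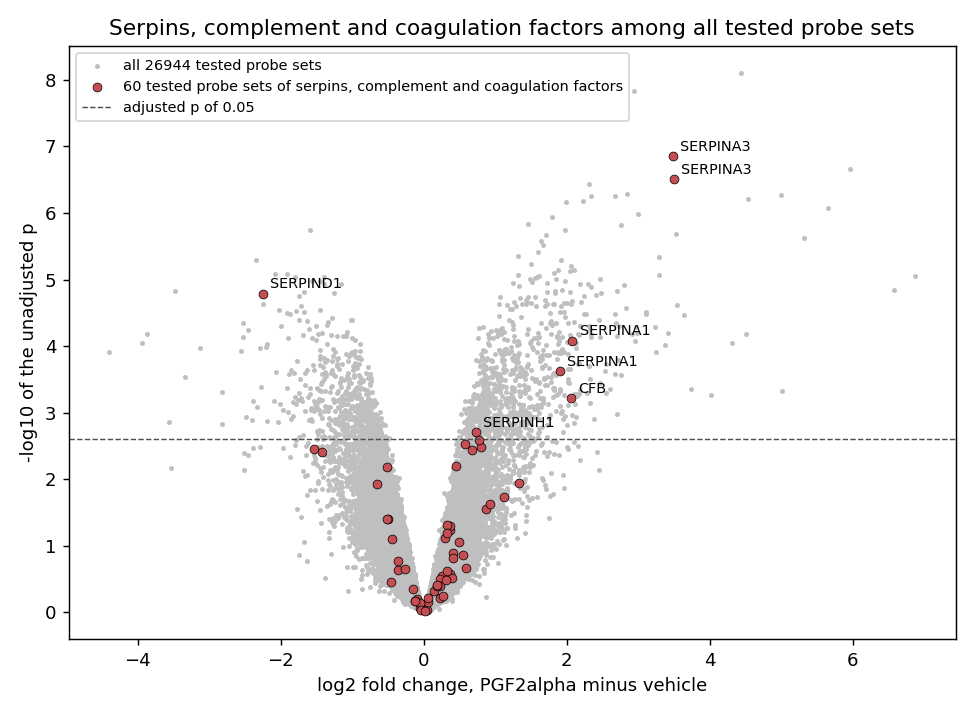
Each point is a tested probe set, with its log2 fold change (PGF2alpha minus vehicle) on the horizontal axis and -log10 of the unadjusted p of limma on the vertical axis; red points are the 60 serpin, complement and coagulation probe sets and grey points all 26944. The 7 named points above the dashed line, which marks an adjusted p of 0.05, are those of SERPINA3, SERPINA1, CFB, SERPINH1 and SERPIND1.

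SERPINA3, alpha-1-antichymotrypsin, is an acute phase protein that inhibits cathepsin G and chymase. Its probe set MmuSTS.2150.1.S1_at read 63.3, 70.3 and 23.7 on the vehicle arrays and 1241, 780 and 962 on the PGF2alpha arrays. A second probe set read 11.1, 23.6 and 14.0 in vehicle and 700, 524 and 553 after PGF2alpha. In both, every vehicle signal lay below its array's median and every PGF2alpha signal well above, with no overlap. The log2 fold changes were 3.50 (SE 0.268, adjusted p = 0.00142, limma) and 3.49 (SE 0.244, adjusted p = 0.00126). Both passed the brightness filter only through the PGF2alpha arrays, so they had to differ to be tested, and their folds are uncertain in size because the vehicle signals lay around the added 40. The other 3 probe sets of SERPINA3 did not show this difference. MmugDNA.42838.1.S1_at, the brightest, read 1141, 1098 and 1082 in vehicle and 1224, 989 and 998 after PGF2alpha, a log2 fold change of -0.05 (95% interval -0.39 to 0.28, adjusted p = 0.884). The remaining probe sets gave -0.10 (adjusted p = 0.836) and -0.15 (adjusted p = 0.707). Thus 2 probe sets rose from below the median, while in the other 3 the groups overlapped. The sizes of the rises depend on the added value: with 10 in place of 40 they were 4.08 and 4.54, and with 160 they were 2.43 and 2.09.

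SERPINA1, alpha-1-antitrypsin, is the main plasma inhibitor of neutrophil elastase and is made by macrophages as well as liver. Its 5 tested probe sets divided by direction. MmugDNA.24291.1.S1_s_at, marked by its suffix as able to cross-hybridise, read 444, 304 and 243 in vehicle and 1929, 1902 and 893 after PGF2alpha. It rose by 2.08 on the log2 scale (SE 0.312, adjusted p = 0.0103). MmugDNA.1704.1.S1_at read 263, 141 and 299 in vehicle and 1092, 1356 and 585 after PGF2alpha, and rose by 1.91 (SE 0.329, adjusted p = 0.0165). In both the groups were apart and PGF2alpha replicate 3 was the treated array nearest to vehicle. The remaining tested probe sets lay the other way. MmuSTS.2682.1.S1_at, the brightest, read 3220, 3201 and 2878 in vehicle and 2480, 2080 and 1977 after PGF2alpha, a log2 fold change of -0.51 (95% interval -0.83 to -0.18, adjusted p = 0.0815). Another stood at -0.50 (adjusted p = 0.211) and MmugDNA.41771.1.S1_at at -0.66 (adjusted p = 0.111). None of these 3 passed, although in each all PGF2alpha signals were below all vehicle signals. Without PGF2alpha replicate 2 neither call was kept (adjusted p = 0.0572 for MmugDNA.24291.1.S1_s_at and 0.0735 for MmugDNA.1704.1.S1_at), and the latter was also lost without PGF2alpha replicate 1 (adjusted p = 0.0644). Over the whole array, 430 genes with 2 or more tested probe sets had at least 1 called. In 358 of these (83.3%) another tested probe set was not called, and in 84 (19.5%) another had the opposite sign. Only 2 (0.465%) had probe sets called in both directions. These counts include SERPINA1 and SERPINA3. They take an opposite sign however near 0, so disagreement as large as that in SERPINA1 was not counted. Probe sets of 1 gene thus also differed in other genes of this array, and which transcripts each probe set reads was not tested.

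**Figure D2:**
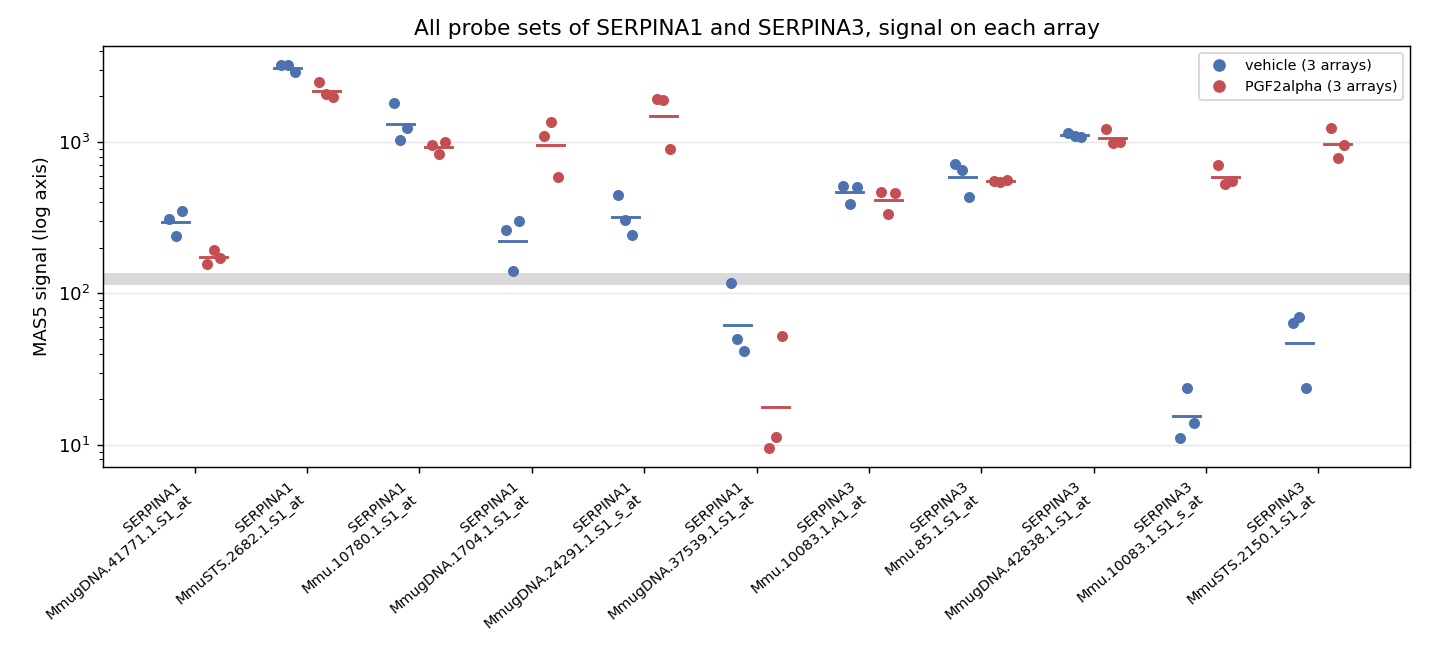
Signal on each of the 6 arrays (log axis) for all 6 probe sets of SERPINA1 and all 5 of SERPINA3, vehicle in blue and PGF2alpha in red, with short bars at the geometric means and a grey band over the range of the array medians (115 to 134). For each gene 2 probe sets were higher on all PGF2alpha arrays, while 3 others of SERPINA3 overlapped between groups and 3 of SERPINA1 were lower.

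SERPIND1, heparin cofactor II, inhibits thrombin in the presence of heparin or dermatan sulphate, and it was the 1 gene that fell. Its only probe set, MmugDNA.41858.1.S1_at, read 6646, 4250 and 3574 in vehicle and 724, 879 and 1350 after PGF2alpha. The groups were far apart, and the highest of the PGF2alpha signals was in replicate 3. The mean signal was 4824 ± 1614 in vehicle and 984 ± 326 after PGF2alpha (SD, n = 3), and the log2 fold change was -2.24 (SE 0.274, 95% interval -2.86 to -1.63, adjusted p = 0.00591, limma). It was -1.93 within hybridisation run 1 and -2.86 within run 2, and the call was kept without each array in turn and under every other alternative run (adjusted p up to 0.0355). Because no other probe set carries the symbol, the difference has no second probe set to be set against.

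A pair of other heparin-binding clade A serpins had lower signals without passing. SERPINA5, the protein C inhibitor, which is also known in reproductive tissues, read 5137, 3704 and 2922 in vehicle and 788, 1013 and 2644 after PGF2alpha by its brighter probe set, and its log2 value differed by -1.54 (SE 0.396, adjusted p = 0.0584). Its other probe set, MmugDNA.13442.1.S1_at, gave -0.51 (adjusted p = 0.211). In both probe sets all PGF2alpha signals lay below all vehicle signals. Replicate 3 of PGF2alpha lay close to the lowest vehicle array in the first, and without that array the value was -2.05 (adjusted p = 0.00293). With each array left out in turn, the adjusted p of the brighter SERPINA5 probe set ran from 0.00293 to 0.1945 (limma). SERPINA4, kallistatin, chosen for mention after its values were seen, read 4065, 1175 and 2291 in vehicle and 849, 933 and 659 after PGF2alpha, which is -1.42 on the log2 scale (SE 0.372, adjusted p = 0.0615). The vehicle arrays were widely spread and did not overlap with those of the treated arrays.

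SERPIND1, SERPINA5 and SERPINA4 had their lower signals beside lower markers of the steroid-forming luteal cells. Of 7 tested markers of those cells 2 fell and 0 rose, and all 7 had an unadjusted p under 0.05 (limma). Over all genes 2.31% fell, 3.76% rose and 24.3% had an unadjusted p under 0.05. The summed signal of the luteal cell markers was 162733 to 194563 in vehicle and 79711 to 144820 after PGF2alpha. CYP11A1, HSD3B1, SCARB1 and LHCGR had no single-symbol probe set, but STAR, HSD3B2, FDX1 and INHA were bright on every array, so the labelled tissue was borne out by the defining markers present. The part of luteal cell content in the lower serpin signals was not tested. In this bulk tissue fewer cells of a type and less RNA per cell cannot be told apart.

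The remaining circulating serpins gave no call. The antiangiogenic SERPINF1 (pigment epithelium-derived factor) stood at 0.41 (95% interval -0.15 to 0.97, adjusted p = 0.385), with vehicle signals of 2356, 3218 and 3898 and PGF2alpha signals of 4966, 2905 and 4877. SERPINC1, antithrombin, read 245, 174 and 222 against 275, 202 and 270 (0.19, adjusted p = 0.67). For both the groups overlapped. SERPINA6 (corticosteroid-binding globulin), SERPINA9 and SERPINA12 lay between -0.36 and 0.23 and did not pass, and SERPINA7, SERPINA10 and SERPINA11 stayed below the filter. Over this role group 4 of 19 tested probe sets rose and 1 fell (3.02% and 1.99% of all tested), with a median log2 fold change of -0.10. All 4 that rose belong to SERPINA1 and SERPINA3, and both of SERPINA3 were tested only through the PGF2alpha arrays. Of 5 hepatocyte markers with a probe set none passed the filter. APOB read 77, 131 and 110 in vehicle and 193, 259 and 125 after PGF2alpha, reaching the median on 2 PGF2alpha arrays, while APOA2, APOH, FGB and AHSG lay below the median on all arrays, and the summed signal was 279 to 452 after PGF2alpha and 230 to 354 in vehicle.

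**Figure D3:**
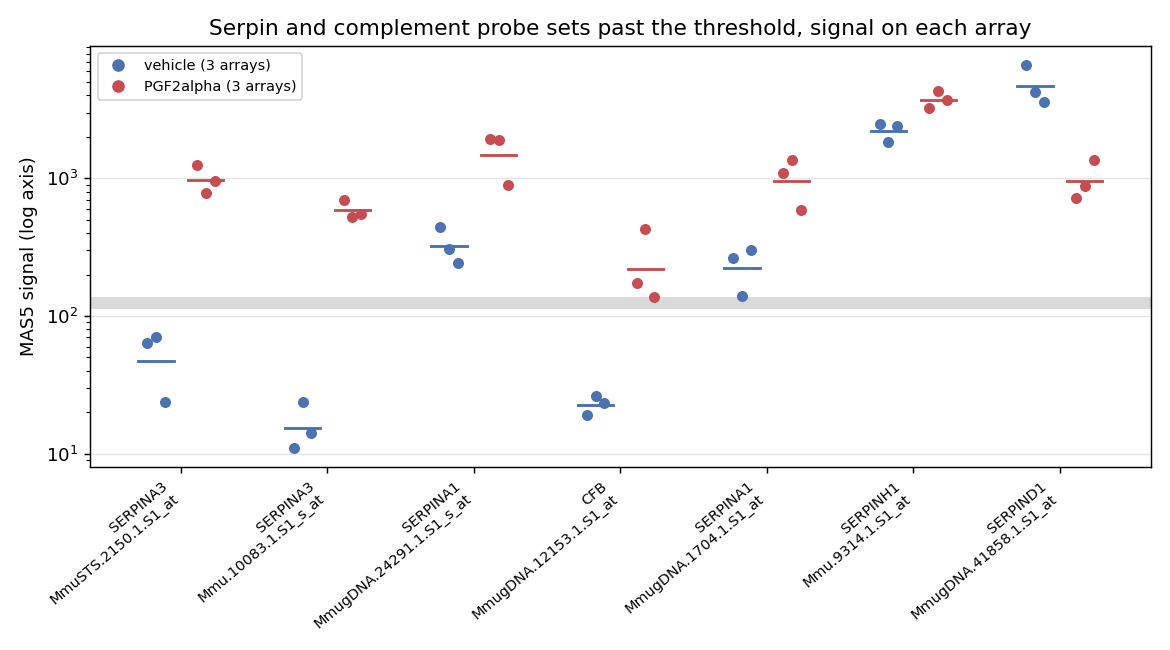
Signal on each array (log axis) for the 7 probe sets that passed, vehicle in blue and PGF2alpha in red, with bars at the geometric means and a grey band over the range of the array medians (115 to 134). The groups do not overlap in any of the 7, and the vehicle signals of CFB and SERPINA3 lie below the band.

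Tissue serpins of clades E, G, H and I had 1 of 10 tested probe sets called (5.01% of all tested were). Their log2 fold changes were positive in 8 of 10, against 46.9% of all tested, with a median of 0.35, and SERPINE2 and SERPINH1 account for 7 of the 10. SERPINH1, known as HSP47, is a collagen chaperone of the endoplasmic reticulum. By 1 of its 3 probe sets it read 2483, 1826 and 2405 in vehicle and 3227, 4299 and 3719 after PGF2alpha, and rose by 0.74 (SE 0.172, adjusted p = 0.0432). Its brightest probe set, MmunewRS.723.1.S1_at, read 7870, 6855 and 7291 against 9309, 9774 and 11171, a log2 fold change of 0.45 (95% interval 0.16 to 0.75, adjusted p = 0.0807). The groups did not overlap in either, while MmuSTS.4620.1.S1_at stood at 0.01 (adjusted p = 0.977). The call for the first of these was lost without any one of the 6 arrays, with adjusted p from 0.0662 to 0.152. In all it was lost under 9 of 17 alternatives, among them no filter (limma, adjusted p = 0.0653).

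SERPING1, the C1 inhibitor, blocks C1r, C1s, kallikrein and factor XIIa and so acts on both cascades. It read 1540, 1891 and 1486 in vehicle and 3617, 2629 and 2346 after PGF2alpha, with no overlap. The log2 fold change was 0.77 (SE 0.189, 95% interval 0.35 to 1.2, adjusted p = 0.0507), just short of the threshold, and it passed under 7 of 18 alternatives. SERPINE2, protease nexin 1, which inhibits thrombin and plasminogen activators, gave 0.33 to 0.37 by its 4 probe sets, with adjusted p of 0.233 to 0.269. Its signals were 9244, 11831 and 8540 in vehicle and 11838, 13087 and 12117 after PGF2alpha by MmuSTS.4328.1.S1_at, so vehicle replicate 5 lay almost at the lowest treated array. SERPINI1, neuroserpin, stood at -0.36 and -0.26 by its probe sets (adjusted p = 0.521 and 0.512), with the groups overlapping, and SERPINI2 was below the filter.

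The clade B serpins work mainly inside cells. Of 13 probe sets of 8 genes only 3 were tested, and 0 passed, against 5.01% of all tested probe sets. Of the 3, 1 had an unadjusted p under 0.05 (limma), against 21.0% of all tested. SERPINB9, the granzyme B inhibitor of cytotoxic and antigen-presenting cells, read 474, 458 and 507 in vehicle and 749, 717 and 743 after PGF2alpha by MmugDNA.33497.1.S1_at. These groups were tight and apart, and the log2 fold change of 0.58 (SE 0.145, 95% interval 0.25 to 0.91) had an adjusted p of 0.0542. Its second probe set stood at 0.23 (adjusted p = 0.676) with overlap. SERPINB6 stood at 0.36 (adjusted p = 0.548). SERPINB2, plasminogen activator inhibitor 2, a product of monocytes, was below the filter with vehicle signals of 43.4, 41.7 and 28.9 and PGF2alpha signals of 179, 749 and 102. Its groups did not overlap, PGF2alpha replicate 2 being the highest, and with no filter the adjusted p was 0.145. SERPINB5, SERPINB7, SERPINB11, SERPINB12 and SERPINB13 were dim in both groups.

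Complement initiation gave no call. The classical pathway begins when C1q, assembled from the chains C1QA, C1QB and C1QC and made chiefly by macrophages, binds a target and activates the proteases C1R and C1S. C1QB read 1543, 751 and 1268 in vehicle and 1131, 1535 and 2755 after PGF2alpha (log2 fold change 0.55, 95% interval -0.21 to 1.32, adjusted p = 0.397). C1QC read 1357, 755 and 1078 against 1063, 1283 and 1953 (0.41, 95% interval -0.19 to 1.01, adjusted p = 0.421). C1QA read 3001, 1680 and 2071 against 2093, 2635 and 3763 by its brighter probe set (0.32, 95% interval -0.26 to 0.91, adjusted p = 0.524) and stood at -0.44 by the other (adjusted p = 0.3). In all 3 chains PGF2alpha replicate 3 was the highest array and vehicle replicate 5 the lowest, by the brighter probe set, and the groups overlapped. Within run 1 the log2 differences of C1QA, C1QB and C1QC were 0.58, 0.83 and 0.65, and within run 2, which held 1 array of each group, they were -0.19, -0.01 and -0.08. C1S stood at 0.07 (95% interval -0.23 to 0.37, adjusted p = 0.822) and 0.15 (adjusted p = 0.729), with signals of 5677 to 7096 on all arrays by its brighter probe set. Of the 6 probe sets 0 passed and 0 had an unadjusted p under 0.05 (limma), against 5.01% and 21.0% of all tested probe sets.

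Markers of macrophages and monocytes were higher on the same arrays. Of 11 tested 7 rose and 0 fell, with a median log2 fold change of 1.23, and their summed signal was 18461 to 30855 in vehicle and 49333 to 82185 after PGF2alpha. MARCO, among those that rose, entered the test only through the PGF2alpha arrays. Over all genes 3.76% were called higher and 2.31% lower. No marker of the list was below the median on all arrays, while CD163, FCGR1A and FCER1G had no single-symbol probe set. All 3 tested neutrophil markers rose (S100A8, S100A9 and MMP9, with summed list signals of 411 to 776 in vehicle and 5507 to 18725 after PGF2alpha), and MPO, ELANE, S100A12 and MMP8 lay below the median on all arrays. Of the T and NK lymphocyte markers 2 were tested. GNLY rose by 3.01 (adjusted p = 0.00186), while GZMB read 4702 to 11726 over the 6 arrays (0.30, adjusted p = 0.59), and the summed signals of the list were 8097 to 12196 in vehicle and 22582 to 39384 after PGF2alpha. The part of these cells in the differences of SERPINA1, SERPINA3, CFB and SERPINB9 was not tested.

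The alternative pathway amplifies complement through factor B, cut by factor D and stabilised by properdin. CFB rose by 1 of its probe sets. MmugDNA.12153.1.S1_at read 19.2, 26.4 and 23.2 in vehicle and 175, 429 and 138 after PGF2alpha, and rose by 2.06 (SE 0.404, adjusted p = 0.0257). It passed the filter only through the PGF2alpha arrays, so it had to differ to be tested and the size of its fold is uncertain. Its brightest probe set, MmuSTS.1399.1.S1_at, read 1768, 1592 and 1816 against 1864, 2128 and 2467 (0.31, 95% interval -0.04 to 0.65, adjusted p = 0.295). Both of these tested probe sets had all PGF2alpha arrays above all vehicle arrays, by very different amounts. The other CFB probe set, MmugDNA.17588.1.S1_at, was below the filter. It read 15.2, 18.4 and 51.8 in vehicle and 10.2, 128 and 157 after PGF2alpha, with overlap. The call of MmugDNA.12153.1.S1_at was lost without PGF2alpha replicates 1 or 2 (adjusted p = 0.073 and 0.113) and without vehicle replicates 4, 5 or 6 (adjusted p = 0.0661, 0.058 and 0.0725).

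Properdin (CFP), a product of myeloid cells, read 442, 387 and 496 in vehicle and 841, 988 and 603 after PGF2alpha, without overlap. Its log2 fold change of 0.80 (SE 0.203, 95% interval 0.34 to 1.26) had an adjusted p of 0.0567, and 0.0195 without PGF2alpha replicate 3. Over the fits with 1 array left out, its adjusted p ran from 0.0195 to 0.1857 (limma). Factor D (CFD) stood at 0.50 (adjusted p = 0.32) and 0.05 (adjusted p = 0.972) by its probe sets, with PGF2alpha replicate 3 the lowest array in each. Without that array the first gave 0.83 (adjusted p = 0.0311), and over the fits with 1 array left out its adjusted p ran up to 0.6535 (limma). Factor I (CFI), the protease that inactivates C3b, read 1477, 1037 and 2331 in vehicle and 1251, 1089 and 2405 after PGF2alpha (-0.04, 95% interval -0.81 to 0.73, adjusted p = 0.964).

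Of the later components, C7, which joins the membrane attack complex, was the only one bright enough to test. It read 801, 737 and 1003 in vehicle and 1026, 743 and 1260 after PGF2alpha (0.22, 95% interval -0.26 to 0.70, adjusted p = 0.603), with overlap. C5 read 23.2 to 89.4 and C6 56.6 to 149 over the 6 arrays. C9 read 1.51 to 57.1 by its 2 probe sets, so these genes were mostly below the array medians and have no test.

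**Figure D4:**
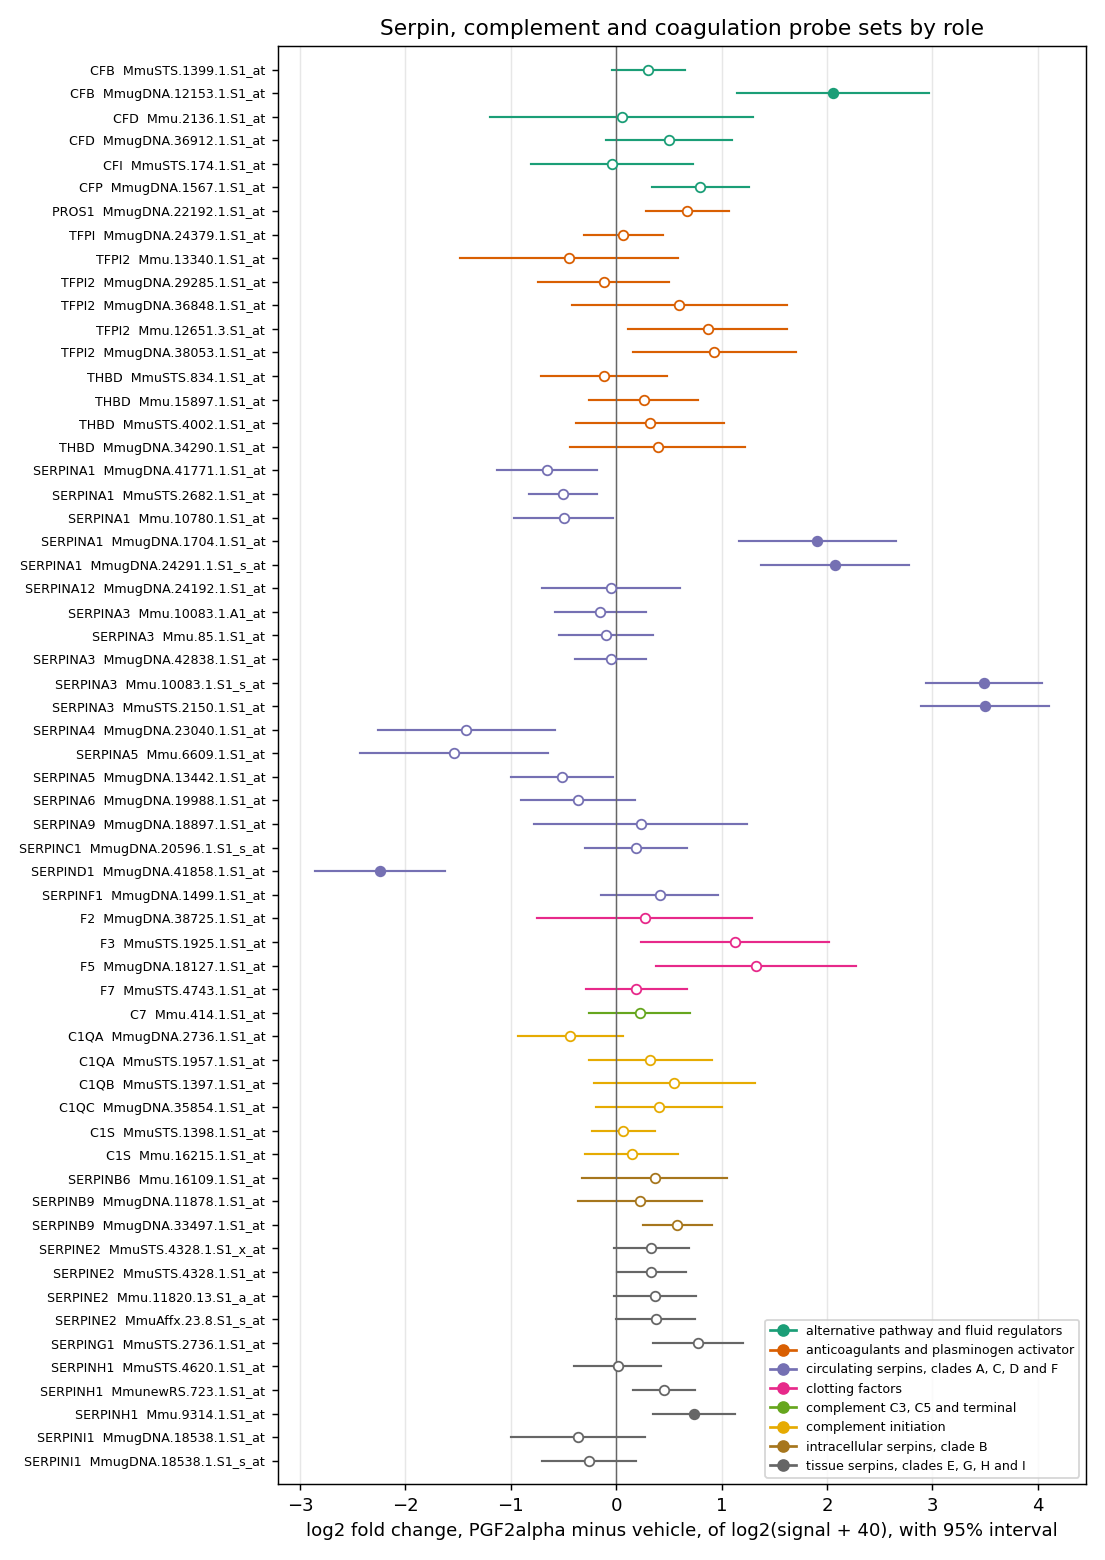
Log2 fold change (PGF2alpha minus vehicle) of log2(signal + 40) with its 95% interval for each of the 60 tested probe sets, coloured by role; filled points passed an adjusted p of 0.05. The filled points are 4 probe sets of SERPINA1 and SERPINA3 and those of CFB and SERPINH1 to the right, and SERPIND1 to the left, while intervals of the complement initiation probe sets all include 0.

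Most clotting factor probe sets were dim, and 8 of 12 stayed below the filter. Tissue factor (F3), the membrane receptor that starts coagulation by binding factor VII, read 388, 1268 and 431 in vehicle and 1258, 1833 and 1087 after PGF2alpha. Vehicle replicate 5 lay among the treated arrays. The log2 fold change was 1.13 (SE 0.394, 95% interval 0.24 to 2.01, adjusted p = 0.141), and without vehicle replicate 5 it was 1.64 (adjusted p = 0.0217). Over all fits with 1 array left out, the adjusted p of F3 ran from 0.0217 to 0.3576 (limma). Factor V (F5), the cofactor of factor Xa, read 79.2, 13.4 and 92.6 against 169, 310 and 143 by MmugDNA.18127.1.S1_at (1.33, adjusted p = 0.108). It was another probe set that entered the test only through the PGF2alpha arrays, and its second probe set was untested. F7 stood at 0.19 (adjusted p = 0.663) and F2, prothrombin, at 0.27 (adjusted p = 0.793), both with overlap. F9, F10 and F12 had no tested probe set. None of the 4 tested probe sets passed, against 5.01% of all tested probe sets. Of the 4, 2 had an unadjusted p under 0.05 (limma), against 21.0% of all tested.

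The anticoagulants gave 0 calls in 11 tested probe sets, against 5.01% of all tested probe sets. Of the 11, 3 had an unadjusted p under 0.05 (limma), against 21.0% of all tested. Protein S (PROS1), a cofactor of activated protein C and also a ligand of the TAM receptors by which phagocytes take up dying cells, read 1465, 1875 and 1941 in vehicle and 3226, 2347 and 2942 after PGF2alpha. Its groups did not overlap, and the log2 fold change was 0.68 (SE 0.175, 95% interval 0.28 to 1.07, adjusted p = 0.0597). It was 0.68 within run 1 and 0.67 within run 2, and with the run as a block it passed (adjusted p = 0.0328). PROS1 did not pass with any 1 array left out (adjusted p from 0.08455 to 0.1849, limma). Thrombomodulin (THBD), the endothelial thrombin receptor, stood between -0.11 and 0.40 by 4 probe sets (adjusted p from 0.567 to 0.857). TFPI, the inhibitor of the tissue factor complex, stood at 0.07 (95% interval -0.31 to 0.44, adjusted p = 0.866), with signals of 2733 to 3866. TFPI2, a related inhibitor of plasmin, ran from -0.45 to 0.93 by 5 probe sets (adjusted p from 0.159 to 0.852), 3 of them positive. Protein C (PROC) read 11.2 to 41.7 and was not tested. Of 9 tested endothelial markers 1 rose (3.76% of all genes did), with summed signals of 23633 to 27213 in vehicle and 23631 to 33460 after PGF2alpha.

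**Figure D5:**
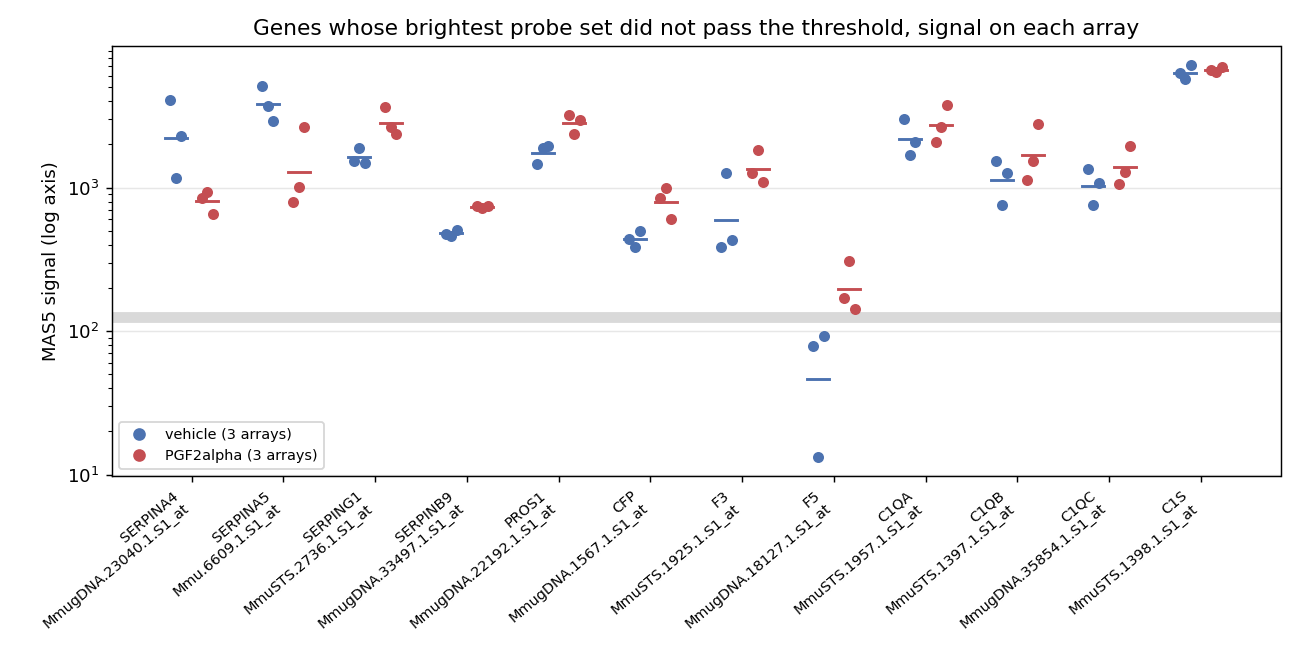
Signal on each array (log axis) of 12 genes whose brightest tested probe set did not pass, vehicle in blue and PGF2alpha in red, with bars at the geometric means and a grey band over the range of the array medians (115 to 134). Groups are apart for SERPINA4, SERPINA5, SERPING1, SERPINB9, PROS1, CFP and F5 and overlap for F3, the C1q chains and C1S.

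Other genes of these pathways were read from their brightest tested probe set. Of all genes read this way, 3.76% were called higher and 2.31% lower, and 24.3% had an unadjusted p under 0.05 (limma). Of 12 tested complement receptors, lectin pathway genes and surface regulators 4 rose and 0 fell, with a median of 0.01. They were the anaphylatoxin receptor C5AR1 (from 562.7 to 831.9 in vehicle to 1438 to 2652, log2 fold change 1.47, adjusted p = 0.0147), the decay-accelerating factor CD55 (0.93, adjusted p = 0.0279), the macrophage complement receptor VSIG4 (1.34, adjusted p = 0.0235) and the integrin chain ITGB2 (1.52, adjusted p = 0.0491). The 2 other tested probe sets of ITGB2 were positive but did not pass (adjusted p = 0.155 and 0.119, limma). Of 18 tested coagulation and fibrinolysis genes 5 rose and 0 fell (median -0.05). F13A1, the fibrin-crosslinking chain of factor XIII found in macrophages and platelets, read 521, 446 and 709 in vehicle and 5629, 3310 and 3933 after PGF2alpha by MmuSTS.4740.1.S1_at, and rose by 2.84 (SE 0.231, adjusted p = 0.00142). Its other tested probe set stood at -0.31 (adjusted p = 0.306). The rest were the plasminogen-binding annexin ANXA2 (0.74, adjusted p = 0.0136), urokinase PLAU, its receptor PLAUR and THBS1. The probe set of ANXA2 is marked by its suffix as able to cross-hybridise. Of 9 tested proteases that serpins inhibit and their partners, the cysteine protease CTSL rose by 1.23 (adjusted p = 0.041) and 0 fell, and the neutrophil proteases ELANE and PRTN3 were below the median on all arrays. With no filter ITGB2, ANXA2 and CTSL did not pass (adjusted p = 0.08, 0.0755 and 0.0721, limma). The platelet markers had 0 calls in 3 tested (0 with an unadjusted p under 0.05, limma), with summed signals of 619 to 1029 in vehicle and 411 to 1036 after PGF2alpha.

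The median signal per array was 115 to 134 and the 2% trimmed mean was 500 on each. The ratio of 3-prime to 5-prime control signals averaged 1.76 in both groups for ACTB and 1.56 and 1.57 for GAPDH after PGF2alpha and vehicle (two-sided exact permutation p = 1 each; 0.1 is the smallest that 3 against 3 allows). The ACTB ratio of vehicle replicate 5 was 2.25, against 1.49 to 1.78 on the other 5 arrays, and its GAPDH ratio of 1.41 was within the range of the others. That array was the one apart in vehicle for F3. It was the lowest for the C1q chains by the brightest probe set of each, but the highest by the other probe set of C1QA (622). The part of RNA quality in those values was not tested. PGF2alpha replicate 3 was the treated array nearest to vehicle in 4 of the 7 called probe sets, those of SERPINA1, CFB and SERPIND1. Within the runs all 7 kept their direction, which had to be so because their groups did not overlap.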

How the data were processed

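The deposited values are 1 linear intensity (the signal) for each probe set, made with MAS5 per the submitters' processing notes (version not given in the sources used here). Their trimmed mean was 500 on each array, so they were used as already scaled. The number of arrays limits the precision, and detection calls were not used. Scanner files gave 2 hybridisation runs: PGF2alpha replicates 1 and 3 with vehicle replicates 5 and 6, and PGF2alpha replicate 2 with vehicle replicate 4. Symbols came from a platform annotation that can be old (1 symbol for 24969 probe sets, several for 361, none for 27535). Groups were compared with limma 3.58.1 in R 4.3.3 on log2(signal + 40) (lmFit, eBayes with trend, no covariate, two-sided), leaving out 99 control probe sets and testing those at or above the array median on at least 3 arrays. The test was checked on simulated data. A gene was read from its tested probe set of highest mean. Genes with values are those with a called probe set, the 2 of smallest p in each role group and a roster of main members; the text also gives SERPINA4, chosen after its values were seen. The members and lists were chosen with earlier results of these data known. Alternatives were quantile or median scaling, pseudocounts of 10 and 160, a filter at the 70th percentile or none, robust eBayes, eBayes with no trend, array weights, run as a block, no cross-hybridising probe sets, the mean of a gene's probe sets and each array left out with the filter unchanged. Coordinates and sequences are not given.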

Additional observations from a re-analysis of the deposited data

How the results depend on the processing

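Of 616 alternative values for named genes, 566 kept their direction and side of the threshold, 17 lost a call, 20 gained one and 13 changed sign. Both SERPINA3 calls and that of SERPIND1 held under each alternative run for them. All tested probe sets called numbered 1351, and 826 with no filter and 669 without the variance trend, and 223 to 1903 with an array left out. Called higher among the 60 were 6 probe sets (2 to 8 with an array left out). Among the members there were 5 with no filter, 5 without the variance trend and 9 with array weights. There were 3 without those tested only through 1 group, an alternative chosen after seeing the data. Called lower was 1 (1 to 2 with an array left out), 3 with array weights and 2 with run as a block. Genes called higher numbered 0 (0 to 3 with an array left out), 2 with median scaling, 1 with a pseudocount of 160, 3 with the 70th percentile filter, 1 with robust eBayes, 3 with array weights, 1 with run as a block, 1 without cross-hybridising probe sets, 2 by the mean of probe sets and, chosen after seeing the data, 4 by any probe set. Genes called lower numbered 1 (1 to 2 with an array left out), 3 with array weights, 2 with run as a block and 2 by the mean of probe sets. The mean of a gene's probe sets turned SERPINA1 to 0.47 (adjusted p = 0.193), SERPINA3 to 1.34 (adjusted p = 0.00842) and C1QA to -0.055 (adjusted p = 0.888), and gave CFB 1.18 (adjusted p = 0.017) and SERPINA5 -1.03 (adjusted p = 0.0404). The means of SERPINA3 and CFB include probe sets tested only through the PGF2alpha arrays, which had to differ to be tested. Other values also changed sign, and those of THBD (0.32) and F2 (0.27) were not near 0. CFI went to 0.0062 with median scaling and to 0.08, 0.18 and 0.26 without PGF2alpha replicates 1 and 2 and vehicle replicate 6. TFPI went to -0.013 with array weights and to -0.017 and -0.063 without PGF2alpha replicate 2 and vehicle replicate 5. THBD went to -0.059 and C1S to -0.0084 without vehicle replicate 5, and F2 to -0.24 without vehicle replicate 6. With 1 array left out these ran from -0.38 to 0.26 for CFI, -0.063 to 0.18 for TFPI, -0.059 to 0.61 for THBD, -0.0084 to 0.15 for C1S and -0.24 to 0.54 for F2. No paired analysis was possible because the groups share no replicate number. Groups of 3 are too small for a test of outlying arrays, and dim probe sets limit the size of folds.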
